A study of Homo sapiens with 6 samples.

Results

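The genes described here are 57 members of the DNA replication machinery: the E2F factors and kinases that start S phase, the proteins that license origins, the replicative helicase, the polymerases, the sliding clamp, the enzymes of nucleotide supply, and the proteins that assemble chromatin and guard the fork. They were chosen by symbol, with earlier results of these data known, and matched through Entrez gene numbers. All 57 were found among the 25702 genes of the deposited table. The RNA came from RMS13, an established cell line of human rhabdomyosarcoma grown with serum, in 3 siGLI1 libraries and 3 siNT2 libraries, all taken at 72 h. The siGLI1 cells had received a small interfering RNA (siRNA) against GLI1, a transcription factor of the Hedgehog pathway, and the siNT2 cells a non-targeting siRNA. Both groups were thus transfected cells of a single line, and whether replicates came from separate cultures is not given in the sources used here, so p-values measure the spread between libraries, which may be technical.

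Recovered reads ran from 13784642 to 15477041 in the siGLI1 libraries and from 13673977 to 18947614 in the siNT2 libraries. GLI1 itself (Entrez 2735) had normalised read counts of 579.9, 905.8 and 1274.1 in siGLI1 libraries, against 11962.5, 17836.9 and 12774.1 in siNT2 libraries, so the siGLI1 mean was 6.48% of the siNT2 mean. Of 8 myoblast and rhabdomyosarcoma markers, 7 reached a mean of 10, and MYF5 stayed under 10 in every library. The summed level of these 8 markers was 57881 to 88675 in siGLI1 libraries and 55060 to 77292 in siNT2 libraries, and of these markers DES and CHRNA1 were called higher in siGLI1 (limma, adjusted p = 0.0153 and 0.0112). The DES call was lost without siNT2 replicate 1 (limma, adjusted p = 0.0535), and that of CHRNA1 without that library or siGLI1 replicate 2 (limma, adjusted p up to 0.0696). After the GC correction described below MYOG was also called higher (limma, adjusted p = 0.00829). MYOD1, CDH15, FGFR4 and PAX3 were not called with or without that correction. Their log2 fold changes without it were -0.04, -0.02, -0.12 and -0.01. Endothelial markers summed to 97.1 to 112.6 in siGLI1 libraries and 12.8 to 29.4 in siNT2 libraries, with CDH5 under 10 in every library. PECAM1 made up most of the siGLI1 sum, with 86.4, 81.8 and 90.9 in siGLI1 libraries and 13.2, 14.2 and 5.58 in siNT2 libraries. PECAM1 was called higher (log2 fold change 2.96; limma, adjusted p = 0.00226), also with any library left out (limma, adjusted p up to 0.0199) and after the GC correction. Blood cell markers summed to 16.4 to 25.7 in siGLI1 and 2.20 to 7.18 in siNT2 libraries, with PTPRC, CD3E, LYZ and HBB under 10 in every library. Epithelial markers summed to 28.6 to 38.8 in siGLI1 and 49.7 to 59.8 in siNT2 libraries, with CDH1, KRT5 and KRT14 under 10 in every library. EPCAM was not called without the GC correction (limma, adjusted p = 0.0994) and was called lower with it (limma, adjusted p = 0.0201). The part of these markers in the results below was not tested.

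In dividing cells, E2F factors held in check by RB proteins are released late in G1 and switch on the genes of DNA synthesis. The origin recognition complex, with CDC6 and CDT1, loads the MCM ring onto DNA before S phase, and CDC45 and GINS turn that ring into the active CMG helicase. Polymerases, clamp and ligase then copy the DNA, while ribonucleotide reductase and thymidylate enzymes supply its building blocks. Rhabdomyosarcoma cells are myoblast-like cells that keep cycling, whereas muscle precursors that differentiate leave the cycle and lose much of this machinery.

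Replication genes were lower in siGLI1 cells where they changed. Of the 57 members, 15 were called lower in siGLI1 and 0 higher, and 42 were not called (limma on log2 of the normalised count plus a pseudocount of 1, Benjamini-Hochberg adjusted p under 0.05 over all 15622 genes tested). All 57 passed the filter on low values, a mean of 10 or more over the 6 libraries. The 15 were 26.3% of the members, where 8.0% of all genes tested were called lower and 7.21% higher. Across the 7 subgroups, of 4 to 12 genes each, 12.5% to 33.3% were called lower. Because the members were chosen with earlier results of these data known, these shares are descriptions and not a test. Fitted fold changes lay below 0 in 51 members, against 50.8% of all genes. The 3 siGLI1 libraries lay wholly below the 3 siNT2 libraries in 34 members and wholly above them in 2, ORC4 and ORC5. Among all genes tested the groups did not overlap in 18.8% with siGLI1 lower and in 17.4% with siGLI1 higher. The median log2 fold change, siGLI1 minus siNT2, was -0.38 over the members, with a range of -1.19 to 0.41, and -0.01 over all genes. The largest falls were in fork checkpoint genes, CLSPN and TIPIN. In RNA from whole cultures, fewer cells in S phase and less replication RNA in each cell cannot be told apart.

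**Figure D1:**
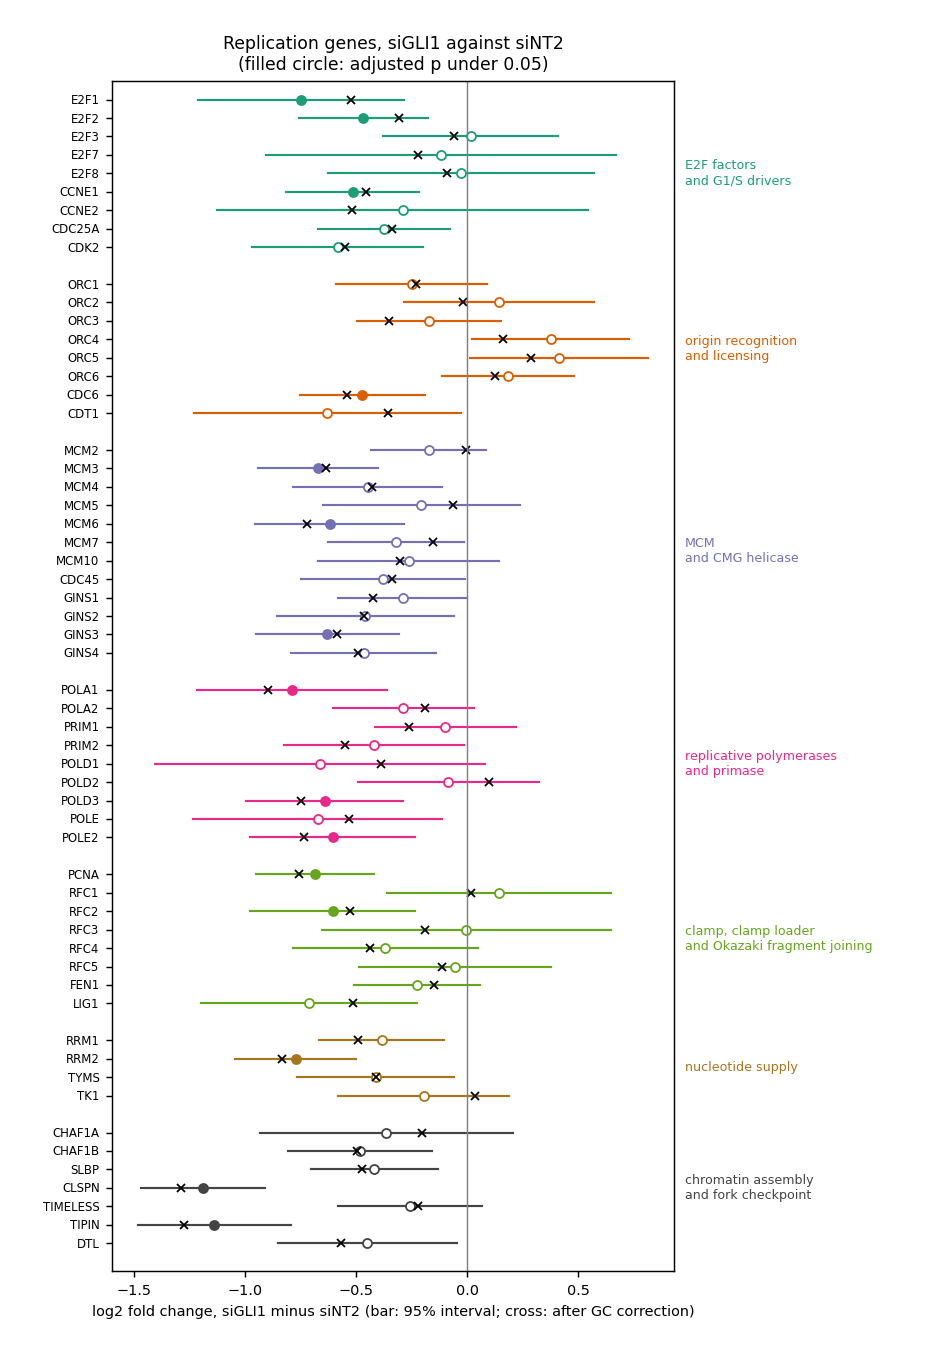
Log2 fold change, siGLI1 minus siNT2, of each of the 57 members by functional group, with its 95% interval as a bar. Filled circles mark the 15 members with an adjusted p under 0.05, and crosses give the fold change after the GC correction described in the text. Points lie to the left of 0 in 51 members, and CLSPN and TIPIN lie farthest left.

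The number of members called depended on a trend with base composition that ran across libraries of both groups. With each library's trend on transcript GC content removed, 31 members were lower and 0 higher, or 54.4%, where 16.1% of all genes were lower, and the member median was -0.41. Of the 15 members called without this correction, 14 were also called with it and E2F2 was not. The 17 added were CDC25A, CDK2, CDT1, MCM4, CDC45, GINS1, GINS2, GINS4, PRIM2, POLD1, POLE, LIG1, RRM1, TYMS, CHAF1B, SLBP and DTL. On recovered whole reads, edgeR called 15 members lower, where it called 7.68% of all genes lower, and DESeq2 called 22, where it called 10.5%. Leaving out siGLI1 replicate 1, 2 or 3 gave 7, 3 or 18 members lower, and leaving out siNT2 replicate 1, 2 or 3 gave 3, 11 or 5. Of all genes, 5.09%, 2.29% or 10.9% were lower without siGLI1 replicate 1, 2 or 3, and 2.87%, 5.18% or 4.36% without siNT2 replicate 1, 2 or 3, and the fits that called more of all genes called as many or more members. RRM2, CLSPN and TIPIN were called in all 6 of these fits. In a fit with a term for the replicate number, these 3 were the only members lower, where 508 of the 15622 genes tested were lower. With the GC correction and 1 library left out, 20 to 32 members were lower, and 20 members were called in all 6 fits. The correction in these fits used all 6 libraries before 1 was left out, so that library still shaped the corrected values. Of all genes, 14.1%, 9.38% or 15.4% were then lower without siGLI1 replicate 1, 2 or 3, and 10.3%, 14.4% or 12.2% without siNT2 replicate 1, 2 or 3.

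Levels of the members can be set side by side only per length, as normalised reads per kilobase of transcript. On that scale MCM7, a helicase subunit, had the highest mean of the members in siNT2 libraries, with 2433 ± 302 in siGLI1 and 3026 ± 190 in siNT2 libraries (SD, n = 3 each). RRM2, the small subunit of ribonucleotide reductase, stood next in siNT2, with 1236 ± 50.8 in siGLI1 and 2113 ± 169 in siNT2 libraries. In siGLI1 libraries the salvage enzyme TK1 was at 1371 ± 241 per kilobase, above RRM2 by less than their spread. The lowest members per kilobase in siNT2 were the origin subunit ORC4, with 82.0 ± 5.13 in siGLI1 and 63.4 ± 8.58 in siNT2 libraries, and CHAF1B, with 84.9 ± 3.14 in siGLI1 and 119.0 ± 12.2 in siNT2 libraries. Length was that of 1 annotated transcript per gene, with the longest coding sequence and, among equals, the longest. These ranks therefore depend on the transcript chosen, which had 6710 bases in ORC4. Every member had at least 140 reads in every library, the smallest being in POLE2, so none rested on counts near 0.

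Among the 9 E2F factors and G1/S drivers, 3 fell (E2F1, E2F2 and CCNE1), 0 rose, and the median log2 fold change was -0.37. E2F1 (Entrez 1869, chromosome 20), the best known activating E2F, had normalised read counts of 1905, 2308 and 3002 in siGLI1 libraries, in the order of replicates 1 to 3, against 3656, 4781 and 3580 in siNT2 libraries. The highest siGLI1 library lay below the lowest siNT2 library, and the siGLI1 libraries spread widely among themselves. E2F1 had a log2 fold change of -0.75 ± 0.20 (SE; limma, adjusted p = 0.0435). E2F2 (Entrez 1870, chromosome 1), another activator, had 1246, 1164 and 1277 in siGLI1 libraries and 1841, 1693 and 1571 in siNT2 libraries, again without overlap. Its log2 fold change was -0.47 ± 0.13 (SE; limma, adjusted p = 0.0444), and after the GC correction -0.31 (limma, adjusted p = 0.145). CCNE1 (Entrez 898, chromosome 19) encodes cyclin E1, which activates CDK2 at the start of S phase. It had 868, 943 and 951 in siGLI1 libraries and 1245, 1450 and 1259 in siNT2 libraries, and its siGLI1 mean was 69.8% of the siNT2 mean. CCNE1 had a log2 fold change of -0.52 ± 0.13 (SE; limma, adjusted p = 0.0354). E2F1, E2F2 and CCNE1 kept their calls in the fit without siGLI1 replicate 3 and lost them in the fits without siGLI1 replicate 1 or 2 or any siNT2 replicate, where the adjusted p (limma) reached 0.162 for E2F1, 0.197 for E2F2 and 0.139 for CCNE1.

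The remaining G1/S members were not called without the GC correction, and with it CDK2 and CDC25A were called lower (limma, adjusted p = 0.0330 and 0.0178). CDK2, the kinase partner of cyclin E, had 1016, 1023 and 826 in siGLI1 libraries, against 1375, 1239 and 1692 in siNT2 libraries, which did not overlap (log2 fold change -0.58; limma, adjusted p = 0.0534). CDC25A, the phosphatase that activates CDK2, had a log2 fold change of -0.37 (limma, adjusted p = 0.0896) and also did not overlap. E2F3 had a log2 fold change of 0.02 with a 95% interval of -0.38 to 0.41. E2F7 and E2F8, the atypical E2F repressors, had log2 fold changes of -0.12 and -0.03, with intervals of -0.91 to 0.67 and -0.63 to 0.57. CCNE2, cyclin E2, had 485, 418 and 214 in siGLI1 libraries and 459, 292 and 593 in siNT2 libraries, so the groups overlapped throughout. Its exons share 47.6% of their bases with other annotated genes, and whether reads were counted by strand is not given in the sources used here.

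Promoters of the members were searched for the E2F site because E2F factors are themselves members. The 5 shown all hold a match, and of these genes only MCM2 was not called lower. RefSeq promoters of GRCh38.p14, from 250 bases before to 50 bases after the gene start, were matched to 50 members. The motif was the set TTTCCCGC, TTTCGCGC, TTTGGCGC and TTTGCCGC on both strands, and matches, which may overlap, are in capitals. The promoters are those of E2F1 (chr20:33686336-33686635, minus strand), MCM6 (chr2:135876394-135876693, minus strand), MCM2 (chr3:127598161-127598460, plus strand), PCNA (chr20:5126573-5126872, minus strand) and CLSPN (chr1:35769929-35770228, minus strand), each 300 bases, 5′ to 3′.
E2F1 promoter: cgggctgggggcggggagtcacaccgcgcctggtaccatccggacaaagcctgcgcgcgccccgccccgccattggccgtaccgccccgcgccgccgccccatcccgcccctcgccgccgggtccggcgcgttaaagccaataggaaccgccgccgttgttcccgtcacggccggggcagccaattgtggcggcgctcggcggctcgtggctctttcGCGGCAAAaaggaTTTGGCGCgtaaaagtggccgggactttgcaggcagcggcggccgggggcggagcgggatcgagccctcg
MCM6 promoter: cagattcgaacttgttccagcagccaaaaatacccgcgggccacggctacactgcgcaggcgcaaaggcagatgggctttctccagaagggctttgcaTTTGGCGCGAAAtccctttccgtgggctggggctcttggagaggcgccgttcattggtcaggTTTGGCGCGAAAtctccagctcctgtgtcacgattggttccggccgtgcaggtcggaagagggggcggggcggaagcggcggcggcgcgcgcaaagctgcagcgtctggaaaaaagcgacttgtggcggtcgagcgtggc
MCM2 promoter: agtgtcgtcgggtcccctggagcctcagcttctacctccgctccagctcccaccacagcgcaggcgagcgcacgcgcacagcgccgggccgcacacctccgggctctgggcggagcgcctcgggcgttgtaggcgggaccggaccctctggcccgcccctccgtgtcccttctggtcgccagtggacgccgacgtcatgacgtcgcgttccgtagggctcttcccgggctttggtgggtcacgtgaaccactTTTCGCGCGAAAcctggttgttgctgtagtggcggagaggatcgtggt
PCNA promoter: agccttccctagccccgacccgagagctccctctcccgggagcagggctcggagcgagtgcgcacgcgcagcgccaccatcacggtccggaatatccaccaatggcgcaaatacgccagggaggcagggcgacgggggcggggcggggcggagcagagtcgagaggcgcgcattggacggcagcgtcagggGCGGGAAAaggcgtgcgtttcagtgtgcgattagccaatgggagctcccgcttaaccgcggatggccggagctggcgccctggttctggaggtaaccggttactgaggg
CLSPN promoter: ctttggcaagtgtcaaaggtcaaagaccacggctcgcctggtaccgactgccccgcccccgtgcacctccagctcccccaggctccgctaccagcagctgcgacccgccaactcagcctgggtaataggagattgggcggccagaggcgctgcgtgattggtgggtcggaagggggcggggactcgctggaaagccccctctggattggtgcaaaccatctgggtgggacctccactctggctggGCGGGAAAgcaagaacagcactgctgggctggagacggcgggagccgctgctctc

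At least 1 match was present in 24 of the 50 member promoters (48.0%), in 5.1% of the 11433 tested genes with a promoter, and in 3.3% of all 27305 promoters. In the list of G2/M and mitosis genes, 3 of 37 promoters held it (8.1%). Of the 14 called members with a promoter 10 had a match, and of the 36 members not called 14 had a match. The median log2 fold change was -0.47 in members with a match and -0.26 in members without. MCM6, with 4 matches that overlap within 2 separate stretches, had a log2 fold change of -0.62. MCM2, with 2 matches that overlap in 1 stretch, had -0.17. RRM2, TIPIN, CCNE1 and RFC2 were called lower and held no match in this window. The same sites without their first base were found in 35 of the 50 member promoters, against 2292 of the 11433 of tested genes and 13 of the 37 of mitosis genes. These shorter sites were in 11 of the 14 called members and 24 of the 36 not called, with median log2 fold changes of -0.41 in members with one and -0.26 in members without. The mitotic CHR element TTTGAA was in 4.0% of member promoters, 64.9% of mitosis promoters and 10.1% of those of tested genes, and CCAAT was in 60.0%, 70.3% and 37.0%. The GLI site GACCACCCA was in 0 member promoters and in 0.3% of those of tested genes. A match describes letters in this window and was not tested as a binding site.

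Members of origin recognition and licensing lay on both sides of 0. Of these 8 members 1 fell (CDC6), or 12.5%, where 8.0% of all genes tested were called lower, and 0 rose. In 4 the fold change lay below 0, and the median log2 fold change was -0.01, or -0.13 after the GC correction. CDC6 (Entrez 990, chromosome 17), the loader that joins the origin complex in G1, had 1335, 1299 and 1306 in siGLI1 libraries, against 1904, 1665 and 1905 in siNT2 libraries. The siGLI1 libraries were almost equal and all lay below the siNT2 libraries. This gave a log2 fold change of -0.47 ± 0.12 (SE; limma, adjusted p = 0.0387). The call was lost without siGLI1 replicate 1 or 2 or without siNT2 replicate 1 or 3, with an adjusted p (limma) of up to 0.167. CDT1, the partner of CDC6 in loading MCM, had 539, 657 and 955 in siGLI1 libraries and 947, 1441 and 918 in siNT2 libraries. Only siGLI1 replicate 3 reached into the siNT2 range, and the log2 fold change of -0.63 was not called (limma, adjusted p = 0.142), but after the GC correction it was -0.36 and called (limma, adjusted p = 0.0157).

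The ORC subunits, which mark origins, split in direction and none was called. ORC5 had 648, 542 and 479 in siGLI1 libraries and 478, 365 and 407 in siNT2 libraries, a log2 fold change of 0.41 with a 95% interval of 0.01 to 0.82 (limma, adjusted p = 0.147). ORC4 had 582, 554 and 514 in siGLI1 libraries and 484, 369 and 423 in siNT2 libraries, a log2 fold change of 0.38 (limma, adjusted p = 0.136). After the GC correction the log2 fold change was 0.29 for ORC5 and 0.16 for ORC4, neither called (limma, adjusted p = 0.0817 and 0.414). Before the correction every siGLI1 library lay above every siNT2 library in both genes, unlike the 34 members in which they lay wholly below. ORC6 and ORC2 had log2 fold changes of 0.18 and 0.14, with overlapping groups. ORC1, the subunit with an E2F-driven cycle in human cells, had -0.25 and ORC3 -0.17, each with an interval that spans 0.

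Every one of the 12 MCM and CMG helicase members had a fitted fold change below 0, with a median of -0.41, and 3 fell: MCM3, GINS3 and MCM6. MCM3 (Entrez 4172, chromosome 6), a subunit of the hexameric ring, had 3021, 2847 and 3269 in siGLI1 libraries, against 5023, 4711 and 4780 in siNT2 libraries. The groups stood well apart, and the siGLI1 mean was 62.9% of the siNT2 mean. MCM3 had a log2 fold change of -0.67 ± 0.12 (SE; limma, adjusted p = 0.0102). MCM6 (Entrez 4175, chromosome 2), another ring subunit, had 1899, 1677 and 1686 in siGLI1 libraries and 2968, 2287 and 2858 in siNT2 libraries. Here siNT2 replicate 2 was the lowest of its group but still above every siGLI1 library. The log2 fold change was -0.62 ± 0.14 (SE; limma, adjusted p = 0.0284). GINS3 (Entrez 64785, chromosome 16), a subunit of the GINS tetramer, had 601, 580 and 553 in siGLI1 libraries and 881, 804 and 1009 in siNT2 libraries, with no overlap. GINS3 had a log2 fold change of -0.63 ± 0.14 (SE; limma, adjusted p = 0.0232). The MCM3 call was lost without siGLI1 replicate 2 or siNT2 replicate 1 (limma, adjusted p up to 0.0716). That of MCM6 was also lost without siNT2 replicate 3 (limma, adjusted p up to 0.137), and that of GINS3 without either of these siNT2 replicates or siGLI1 replicate 1 or 2 (limma, adjusted p up to 0.112).

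The 6 subunits of the MCM ring, present in equal number in the assembled hexamer, differed in their fold changes. In rising order of loss the log2 fold changes were -0.17 for MCM2, -0.21 for MCM5, -0.32 for MCM7, -0.45 for MCM4, -0.62 for MCM6 and -0.67 for MCM3. After the GC correction they were -0.01, -0.06, -0.15, -0.43, -0.72 and -0.64 in the same gene order. MCM4, with 3714, 3589 and 3345 in siGLI1 libraries against 5132, 4058 and 5434 in siNT2 libraries, was not called without the correction (limma, adjusted p = 0.0771) and was called with it (limma, adjusted p = 0.0410). MCM2 had 4301, 4318 and 4328 in siGLI1 libraries and 4684, 4731 and 5198 in siNT2 libraries. These groups did not overlap either, but the siGLI1 mean was still 88.6% of the siNT2 mean, and 32.0% of the MCM2 exon bases are shared with other annotated genes. The 5 uncalled members outside the ring, MCM10, CDC45, GINS1, GINS2 and GINS4, had log2 fold changes from -0.46 to -0.26. After the GC correction CDC45, GINS1, GINS2 and GINS4 were called lower (limma, adjusted p = 0.0469, 0.0160, 0.0438 and 0.00711) and MCM10 was not (limma, adjusted p = 0.0962). GINS4 shares 23.6% of its exon bases with other annotated genes.

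The polymerases and primase had a median of -0.60, with all 9 members below 0 and 3 called lower: POLA1, POLD3 and POLE2. POLA1 (Entrez 5422, chromosome X), the catalytic subunit of polymerase alpha, which starts each new strand, had 1046, 838 and 824 in siGLI1 libraries, against 1746, 1228 and 1739 in siNT2 libraries. The siNT2 libraries varied more than the siGLI1 libraries, and the groups did not overlap. POLA1 had a log2 fold change of -0.79 ± 0.18 (SE; limma, adjusted p = 0.0283). POLD3 (Entrez 10714, chromosome 11), an accessory subunit of the lagging-strand polymerase delta, had 498, 506 and 449 in siGLI1 libraries and 843, 642 and 795 in siNT2 libraries. Its siGLI1 mean was 63.7% of the siNT2 mean, and the log2 fold change was -0.64 ± 0.15 (SE; limma, adjusted p = 0.0301). POLE2 (Entrez 5427, chromosome 14), the second subunit of the leading-strand polymerase epsilon, had 151, 191 and 166 in siGLI1 libraries and 262, 235 and 274 in siNT2 libraries. The groups were separate, and the log2 fold change was -0.60 ± 0.16 (SE; limma, adjusted p = 0.0423). The POLE2 call was lost in each of the 6 fits without 1 library (limma, adjusted p 0.0569 to 0.152). That of POLA1 was lost without siGLI1 replicate 2 or siNT2 replicate 1 or 3 (limma, adjusted p up to 0.132), and that of POLD3 without those or siGLI1 replicate 1 (limma, adjusted p up to 0.136).

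The catalytic subunits of the other 2 polymerases, POLD1 and POLE, had large fold changes and a large spread. POLE had 2936, 4414 and 5549 in siGLI1 libraries, against 5652, 7816 and 6595 in siNT2 libraries, a log2 fold change of -0.67 (limma, adjusted p = 0.101). POLD1 had 1210, 1962 and 2761 in siGLI1 libraries and 2425, 4077 and 2616 in siNT2 libraries, a log2 fold change of -0.66 (limma, adjusted p = 0.202). In both genes siGLI1 replicate 1 was lowest and siNT2 replicate 2 highest, and both have GC-rich transcripts. After the GC correction POLE and POLD1 were called lower, with log2 fold changes of -0.53 and -0.39 (limma, adjusted p = 0.0255 and 0.0344). The primase subunits differed in size, with -0.42 for PRIM2 and -0.10 for PRIM1, and PRIM2 was called lower after the correction (limma, adjusted p = 0.0117). POLD2 had -0.08, which turned to 0.10 with the GC correction, and POLA2 had -0.29. Exon bases shared with other annotated genes made up 53.7% in POLA2 and 34.8% in PRIM1.

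Of the 8 clamp, clamp loader and Okazaki fragment genes, 2 fell (PCNA and RFC2), 0 rose, and the median was -0.30. PCNA (Entrez 5111, chromosome 20), the sliding clamp that tethers polymerases to DNA, had 1260, 1298 and 1285 in siGLI1 libraries, against 2162, 2014 and 2009 in siNT2 libraries. Each group was tight and the groups stood far apart. PCNA averaged 1281 ± 19.3 in siGLI1 and 2062 ± 87.0 in siNT2 libraries (SD, n = 3 each), 62.1% of the siNT2 level, and the log2 fold change was -0.69 ± 0.11 (SE; limma, adjusted p = 0.00879). RFC2 (Entrez 5982, chromosome 7), a small subunit of the loader that opens the clamp, had 1002, 1054 and 1299 in siGLI1 libraries and 1742, 1892 and 1467 in siNT2 libraries. Its log2 fold change was -0.61 ± 0.16 (SE; limma, adjusted p = 0.0421). The PCNA call was lost without siGLI1 replicate 2 or siNT2 replicate 1 (limma, adjusted p up to 0.0634), and the RFC2 call was kept only without siGLI1 replicate 3 (limma, adjusted p up to 0.175). Annotation lists 3 PCNA pseudogenes, so its value may include reads shared with them.

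The other loader subunits were not called and did not follow RFC2 in size. RFC1, the large subunit, had a log2 fold change of 0.14, RFC3 -0.00, RFC5 -0.05 and RFC4 -0.37, each with overlapping groups. FEN1, the nuclease that trims Okazaki fragments, had -0.23 with an interval of -0.51 to 0.06. LIG1, the ligase that joins them, had 843, 1099 and 1336 in siGLI1 libraries, against 1563, 2167 and 1602 in siNT2 libraries. The LIG1 groups did not overlap, and its log2 fold change of -0.71 was not called (limma, adjusted p = 0.0597) but was -0.51 and called after the GC correction (limma, adjusted p = 0.00311).

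In nucleotide supply, 1 of 4 members fell, RRM2, and the median was -0.40. RRM2 (Entrez 6241, chromosome 2), the subunit of ribonucleotide reductase whose level rises in S phase, had 4528, 4733 and 4360 in siGLI1 libraries, against 7591, 7242 and 8446 in siNT2 libraries. The lowest siNT2 library was far above the highest siGLI1 library. The siGLI1 mean was 58.5% of the siNT2 mean, with a log2 fold change of -0.77 ± 0.12 (SE; limma, adjusted p = 0.00633), and the adjusted p (limma) was at most 0.0416 with any library left out. RRM2 shares 27.9% of its exon bases with another annotated gene and has 3 annotated pseudogenes, so its level is less certain than its replicate spread shows. RRM1, the large subunit, had 3364, 3203 and 3057 in siGLI1 libraries and 4328, 3800 and 4455 in siNT2 libraries. The groups did not overlap, the log2 fold change was -0.38 (limma, adjusted p = 0.0727), and after the GC correction it was -0.49 and called (limma, adjusted p = 0.00420). TYMS, which makes thymidylate, had -0.41 (limma, adjusted p = 0.108), was called after the correction at -0.41 (limma, adjusted p = 0.0373), and shares 64.6% of its exon bases with other genes. TK1, which salvages thymidine, had -0.20 before and 0.04 after the GC correction, with overlapping groups.

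The fork checkpoint genes CLSPN and TIPIN fell most of all 57 members. CLSPN (Entrez 63967, chromosome 1) encodes claspin, the mediator that lets ATR activate CHK1 at stalled forks. It had 1576, 1697 and 1466 in siGLI1 libraries, against 3747, 3459 and 3594 in siNT2 libraries, and the groups were separated by more than the width of either. The siGLI1 mean was 43.9% of the siNT2 mean, with a log2 fold change of -1.19 ± 0.12 (SE; limma, adjusted p = 0.00137). TIPIN (Entrez 54962, chromosome 15), which with TIMELESS forms the fork protection complex, had 218, 243 and 193 in siGLI1 libraries and 487, 495 and 454 in siNT2 libraries. All 3 siGLI1 libraries were far below all 3 siNT2 libraries, and the log2 fold change was -1.14 ± 0.15 (SE; limma, adjusted p = 0.00349). With any library left out, the adjusted p (limma) was at most 0.0154 for CLSPN and 0.0275 for TIPIN. TIMELESS itself had 1771, 2145 and 2337 in siGLI1 libraries and 2412, 2495 and 2522 in siNT2 libraries, a log2 fold change of -0.26 that was not called (limma, adjusted p = 0.248).

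The 4 chromatin assembly and cell cycle members beside them were not called without the GC correction. CHAF1B, the middle subunit of the histone chaperone CAF-1, had 364, 387 and 389 in siGLI1 libraries and 537, 477 and 586 in siNT2 libraries (log2 fold change -0.48; limma, adjusted p = 0.0569). SLBP, which binds the stem-loop of histone mRNAs, had 1240, 1376 and 1266 in siGLI1 libraries and 1818, 1608 and 1766 in siNT2 libraries (log2 fold change -0.42; limma, adjusted p = 0.0591). Neither gene's groups overlapped, and both were called lower after the correction (limma, adjusted p = 0.00964 for CHAF1B and 0.00597 for SLBP). DTL, which directs CDT1 to degradation in S phase, had a log2 fold change of -0.45 (limma, adjusted p = 0.124) and after the correction -0.57 (limma, adjusted p = 0.00270). CHAF1A, the large CAF-1 subunit, had -0.36 with an interval of -0.93 to 0.21.

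**Figure D2:**
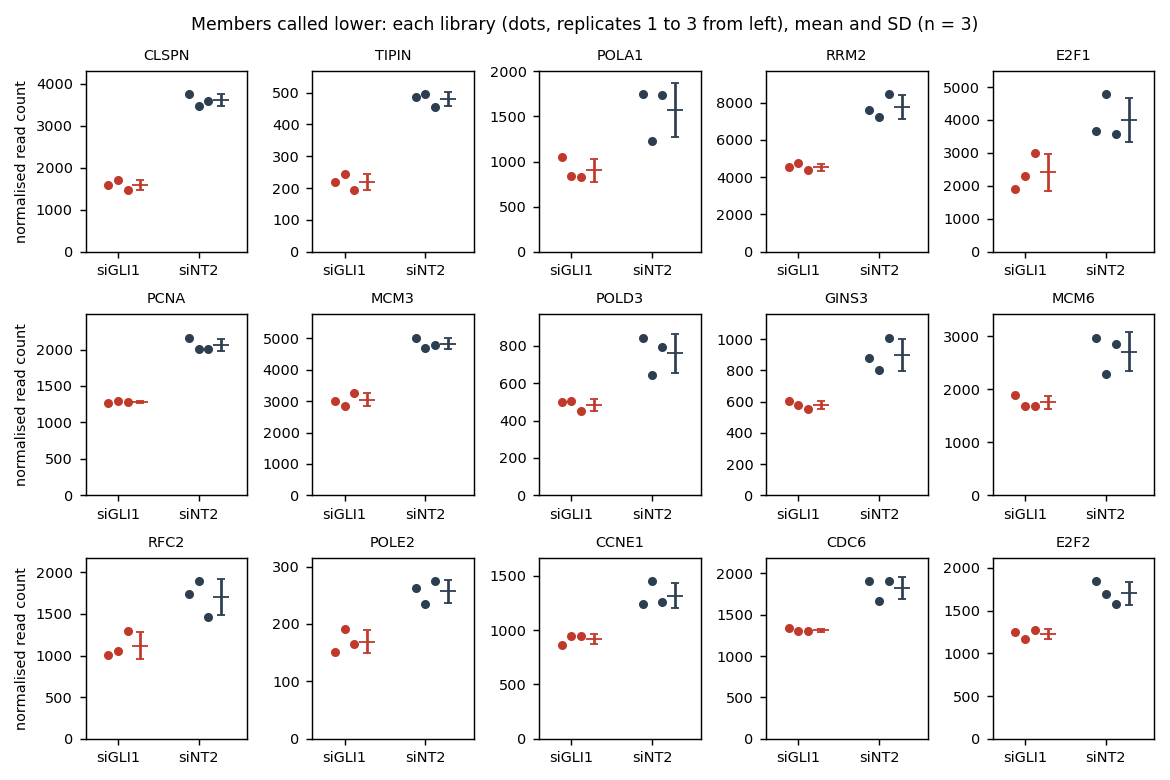
Normalised read count of each of the 15 members called lower, with 1 dot per library (replicates 1 to 3 from left) and the mean with its SD (n = 3) beside them, siGLI1 left of siNT2 and each axis from 0. In all 15 panels every siGLI1 dot lies below every siNT2 dot, with the widest gaps in CLSPN and TIPIN.

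Ratios of normalised reads per kilobase set partners within 4 complexes side by side. These ratios were chosen after the values were seen and carry no test. RRM2 over RRM1 was 1.13, 1.24 and 1.19 in siGLI1 libraries, against 1.47, 1.596 and 1.59 in siNT2 libraries. TIPIN over TIMELESS was 0.362, 0.333 and 0.242 in siGLI1 libraries, against 0.593, 0.582 and 0.528 in siNT2 libraries. In these pairs every siGLI1 library lay below every siNT2 library. ORC1 over ORC2 was 1.73 ± 0.26 in siGLI1 and 2.26 ± 0.086 in siNT2 libraries (SD, n = 3 each), again without overlap. None of the ratios carries the GC correction, and transcript GC content is 50.7% in ORC1 and 40.1% in ORC2. With the correction, the log2 fold change went from -0.25 to -0.23 for ORC1 and from 0.14 to -0.02 for ORC2. MCM3, MCM4 and MCM6 together, over MCM2, MCM5 and MCM7, gave 0.598 ± 0.064 in siGLI1 and 0.740 ± 0.105 in siNT2 libraries (SD, n = 3 each), and these groups overlapped.

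**Figure D3:**
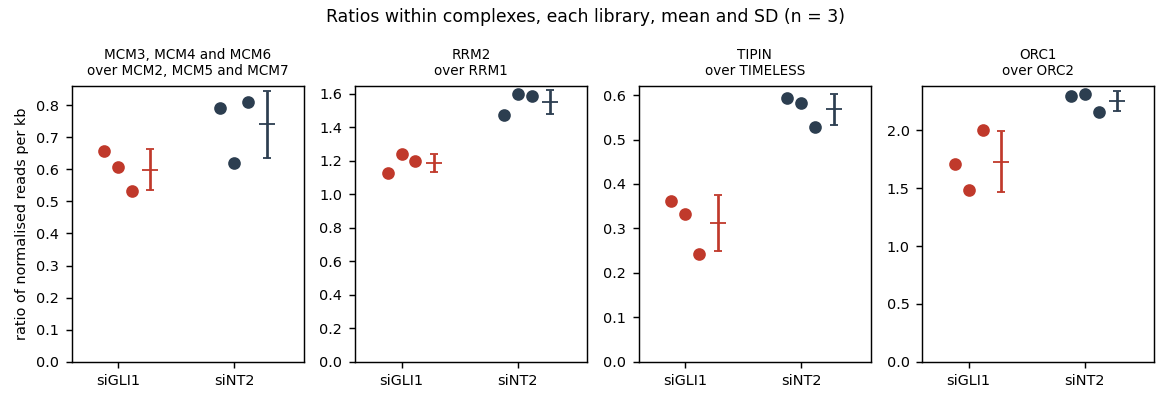
Ratio of normalised reads per kilobase within 4 complexes, without the GC correction. Each panel has 1 dot per library and the mean with its SD (n = 3), siGLI1 left of siNT2 and each axis from 0. The siGLI1 dots lie below the siNT2 dots for RRM2 over RRM1, TIPIN over TIMELESS and ORC1 over ORC2, and overlap them for the MCM subunits.

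Libraries of the same group differed in the members by base composition. Over the 57 members, whose transcripts hold 36.9% to 65.0% GC, the rank correlation of a library's deviation from its group mean with GC content was -0.69, -0.38 and 0.75 in siGLI1 replicates 1 to 3, and -0.64, 0.67 and -0.55 in siNT2 replicates 1 to 3. The members of a library share its preparation and depth, so these values are descriptions. GC-rich members such as POLD1, CDT1, E2F1 and LIG1 were thus lowest in siGLI1 replicate 1 and highest in siNT2 replicate 2. GC-poor members such as CCNE2 and RFC3 were lowest in siGLI1 replicate 3 and in siNT2 replicate 2 within each group. The log2 fold change itself had a rank correlation of -0.23 with GC content over the members, and 0.16 after the correction. Over all 14438 tested genes with a GC value it was -0.29 before the correction. The correction also removes any group difference that follows GC content. Leaving out siGLI1 replicate 3 and siNT2 replicate 2, the library of each group with the highest values at GC-rich genes, 32 members were called lower, among them all 15, where 15.1% of all genes were called lower.

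**Figure D4:**
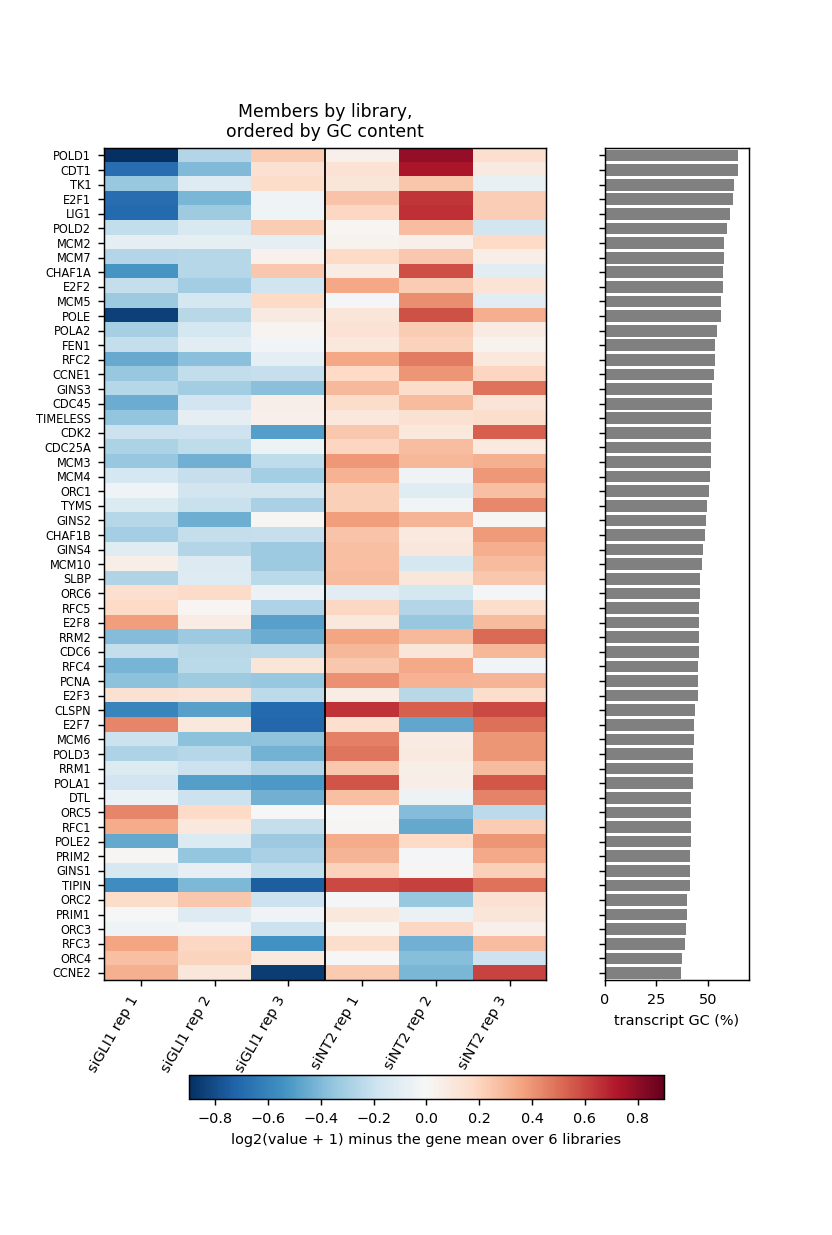
Deviation of log2(normalised count + 1) from the gene's mean over the 6 libraries, for the 57 members in rows ordered by transcript GC content and the libraries in columns, siGLI1 left of siNT2, with GC content in percent as bars at the right. Most rows are blue in siGLI1 and red in siNT2, and the colours within a group change from top to bottom in opposite ways in siGLI1 replicate 3 and siNT2 replicate 2 against the other libraries.

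A further 56 replication genes outside the members, listed by role, had a median log2 fold change of -0.12. Of these, 7 were lower (12.5%) and 0 higher, where 8.0% of all genes tested were lower and 7.21% higher. The 7 were TFDP1, DONSON, TICRR, SHMT1, CTPS1, ASF1B and NASP. TFDP1, the DP partner with which E2F factors bind DNA, had 514, 514 and 423 in siGLI1 libraries, against 1254, 937 and 1565 in siNT2 libraries. Its siGLI1 mean was 38.6% of the siNT2 mean and its log2 fold change -1.35 ± 0.21 (SE; limma, adjusted p = 0.00635). DONSON, needed for origin firing, had a log2 fold change of -0.92 (limma, adjusted p = 0.00617) and TICRR, which helps to load CDC45, had -0.52 (limma, adjusted p = 0.0396). SHMT1, a folate enzyme that feeds thymidylate synthesis, had -1.16 (limma, adjusted p = 0.00138), and the CTP synthase CTPS1 had -0.47 (limma, adjusted p = 0.0438). The histone chaperones ASF1B and NASP had -1.02 and -0.65 (limma, adjusted p = 0.00258 and 0.0154). TFDP1, DONSON, SHMT1 and ASF1B were called in all 6 fits without 1 library. The calls of TICRR were lost in each of them (limma, adjusted p up to 0.174), those of CTPS1 in all but the fit without siNT2 replicate 2 (limma, adjusted p up to 0.184), and those of NASP without siGLI1 replicate 1 or 2 or siNT2 replicate 1 (limma, adjusted p up to 0.0831). The 13 genes for RPA, further polymerase subunits and fork enzymes had 0 called in limma, edgeR and DESeq2, 1 with an unadjusted p under 0.05, and a median of 0.05. With the GC correction DNA2 and DSCC1 were called lower and RPA2 and POLD4 higher among them, and the median was -0.07.

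Genes of G2 and mitosis, a later part of the cycle, had a median log2 fold change of 0.01 over 45 genes, with 1 lower and 1 higher. The share lower was 2.22%, where 8.0% of all genes tested were lower and 7.21% higher. ESPL1, separase, had 1498, 1614 and 1802 in siGLI1 libraries, against 2456, 2983 and 2789 in siNT2 libraries, a log2 fold change of -0.74 (limma, adjusted p = 0.0124). CCNB2, cyclin B2, had 2658, 2643 and 2776 in siGLI1 libraries and 1725, 1804 and 1787 in siNT2 libraries, a log2 fold change of 0.60 (limma, adjusted p = 0.0128). The ESPL1 call was lost without siGLI1 replicate 2 (limma, adjusted p = 0.0752), and the CCNB2 call without siGLI1 replicate 2 or siNT2 replicate 1 (limma, adjusted p up to 0.0788). With the GC correction the mitosis list had 12 lower (26.7%) and 2 higher with a median of -0.04. The 56 further replication genes then had 19 lower (33.9%) and 3 higher with a median of -0.25, where 16.1% of all genes were lower. Without the correction, the groups did not overlap in 13 of the 45 mitosis genes with siGLI1 lower and in 4 with siGLI1 higher. Among all genes tested these shares were 18.8% and 17.4%. The difference between the members and the mitosis list was not tested.

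**Figure D5:**
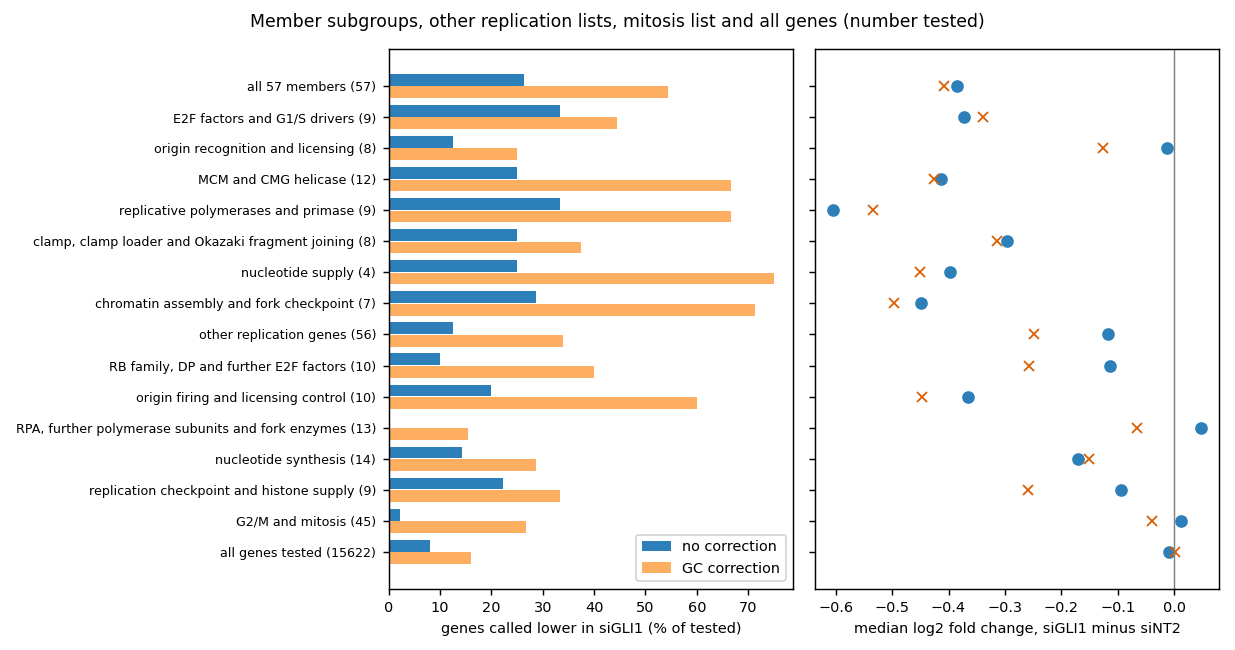
Share of genes called lower in siGLI1 (left, percent of the genes tested, from 0) and median log2 fold change, siGLI1 minus siNT2 (right), for the members, their 7 subgroups, the other replication lists, the mitosis list and all genes tested, without and with the GC correction. The members stand at 26.3% and 54.4% and all genes at 8.0% and 16.1%, and the licensing and mitosis medians lie close to 0.

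The heptamer GCACCTC, looked for in 3′ untranslated regions because earlier results of these data had named it, was present in 5 of the 57 members (CDT1, MCM6, GINS4, PRIM2 and POLE), or 8.77%. Of the 12973 tested genes with such a region, 8.06% held it. Of the 15 called members 1 held it, MCM6. The median log2 fold change was -0.62 in the 5 members with it and -0.37 in the members without.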

How the data were processed

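The authors deposited 1 table of signal values for 6 libraries of RMS13 cells: counts of reads in each gene, scaled by a size factor of the library and not by length. Per the submitters' processing notes, the build was hg19 and the tools included Bowtie2 2.3.3.1, featureCounts (Subread 1.6.4), Trim Galore 0.4.5 and DESeq2 2.11.40.6. The gene annotation and strand setting are not given. In each deposited column, whole reads within a tolerance of 0.01 made up 100.0% of values, so counts were recovered (13673977 to 18947614 per library). A count of 0 allows up to 3 reads, 2.39 to 3.29 in deposited units, for counting error only. No 2 libraries of a group agreed within sampling noise.

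Symbols came from RefSeq (GRCh38.p14) and fitted 92.2% of the IDs. Transcript GC content, length and exon overlap came from GENCODE release 29 (GC for 92.4% of tested genes), so per-kilobase values use another build than the counts. An overlap was reported above 20% of exon bases, which held for 7 members, and 8 members have like-named pseudogenes.

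Genes with a mean of 10 or more were tested with limma 3.58.1 (trend) on log2(value + 1), group as the only term, Benjamini-Hochberg adjusted, threshold 0.05, in R 4.3.3, and checked on simulated counts. This scale understates changes of low genes. Alternatives were pseudocounts of 0.5 and 8, no filter and a filter at 50, TMM scaling, library weights, a replicate block, removal of each library's loess trend on GC (span 0.3), each library left out, edgeR 4.0.16 and DESeq2 1.42.0 on recovered counts. Library weights by REML did not converge, so the gene-by-gene method was used. The GC correction with 1 library left out, and the fit without siGLI1 replicate 3 and siNT2 replicate 2, were added after seeing the data. That correction was made on all libraries before 1 was left out.

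The members and lists were chosen with earlier results of these data known. Full values go to up to 4 called members per subgroup with the smallest adjusted p, and to up to 3 called genes of each other list. The values of other members, and the ratios within complexes, were picked after they were seen.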

Additional observations from a re-analysis of the deposited data

How the results depend on the processing

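Pseudocounts of 0.5 and 8, the filter at 50, TMM scaling and edgeR each gave 15 members lower, and no filter gave 13. The counts rose with library weights (4059 genes higher, 4215 lower, 40 members lower and 2 higher) and with the GC correction (2375 genes higher, 2319 lower, 31 members lower), and without siGLI1 replicate 3 and siNT2 replicate 2 there were 2236 genes higher, 2356 lower and 32 members lower. Same-numbered siGLI1 and siNT2 libraries share a prefix in their descriptions, and what it marks is not given in the sources used here. Deviations of same-numbered libraries correlated at 0.49, -0.11 and -0.61 for numbers 1 to 3, and at 0.34, 0.02 and -0.40 after the GC correction. The main fit did not take the numbers as pairs. These 3 values cannot show whether the libraries were paired, because deviations also followed GC content. With the replicate block 462 genes were higher, 508 lower and 3 members lower (RRM2, CLSPN and TIPIN), and with block and GC correction 1865 higher, 1795 lower and 25 members lower. Leaving out 1 library gave 283 to 1562 genes higher, 358 to 1705 lower and 3 to 18 members lower. With the GC correction and without siGLI1 replicate 1, 2 or 3, genes higher were 1919, 1457 or 2234, genes lower 2042, 1355 or 2228, and members lower 26, 20 or 30. With the GC correction and without siNT2 replicate 1, 2 or 3 they were 1629, 1934 or 2156, 1486, 2076 or 1759, and 21, 32 or 25. Without the GC correction and with 1 library left out, subgroup medians ran from -0.47 to -0.37 for E2F factors, -0.67 to -0.42 for polymerases, -0.39 to -0.22 for the clamp group, -0.49 to -0.32 for nucleotide supply and -0.56 to -0.41 for the fork group. The polymerase median was -0.45 with library weights. The licensing median ran from -0.072 to 0.069 with 1 library left out, was 0.081 with library weights and -0.13 with the GC correction, with or without the block.

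Small fold changes turned direction. With the GC correction, with or without the block, E2F3 was -0.057, ORC2 -0.020, POLD2 0.098 and TK1 0.038. E2F8 was 0.0036 with edgeR and 0.0033 with DESeq2, and RFC3 was 0.0074 with TMM scaling, 0.024 with library weights and 0.026 with edgeR and with DESeq2. With 1 library left out, E2F3 ran from -0.11 to 0.14, E2F7 from -0.38 to 0.21, E2F8 from -0.22 to 0.21, CCNE2 from -0.57 to 0.066, POLD2 from -0.22 to 0.033, RFC1 from -0.050 to 0.29, RFC3 from -0.22 to 0.27 and RFC5 from -0.20 to 0.070. The cause of these changes was not tested.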
